A study of Mus musculus with 186 samples.

Results

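Lungs taken on day 28 of a bleomycin model of systemic sclerosis were compared with lungs of PBS-injected mice taken on the same day. The comparison covers 7 bleomycin and 7 PBS libraries, which are 14 of 93 lung libraries and of 186 libraries in all, and every gene measured in them. Bleomycin mice had received 10 mg/kg of bleomycin per day under the skin of the back, 5 times a week for 2 weeks, and PBS mice had received PBS on the same schedule. Both groups were female C57BL/6 mice of about 12 weeks, with no allele named in the labels, and both were given oral vehicle from day 12 on and no SB525334, the ALK5 inhibitor used in other groups. RNA came from the superior lobe, as stranded total RNA depleted of ribosomal RNA. Injections ended after the second week, so day 28 lies about 2 weeks after the last of them. The labels number the libraries of a group without naming the animal behind each, so the p-values measure only the spread between libraries. In the main test that spread was estimated over all 93 lung libraries, not over these 14 alone.

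Bleomycin cuts DNA. Cut DNA stabilises p53, a transcription factor that switches on genes for cell cycle arrest, repair and death, among them Cdkn1a, which encodes the arrest protein p21. In the lung the drug is known to damage alveolar epithelium and capillary endothelium, to draw in monocyte-derived macrophages that express Spp1 and genes of lipid handling, and to lead fibroblasts to deposit matrix under the influence of TGF-beta. Alveolar type 2 cells that regenerate the surface pass through a transitional state marked by keratins, Cldn4 and Cdkn1a before they become flat type 1 cells.

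On day 28, p53 target genes were higher in the bleomycin lungs, with 22 of 32 measured targets called higher and 2 called lower, against 19.7% and 18.4% of all genes tested. Genes of the transitional epithelium were higher too, and so were genes of Spp1-expressing macrophages, led by Mmp12 at a log2 fold change of 4.64 ± 0.51 (SE) and Spp1 at 3.35 ± 0.35, with 7 libraries per group. Capillary endothelial genes were lower, 20 of 25 of them. Without the libraries rich in ribosomal protein transcripts 1 of them was, where 1.10% of all genes were called lower. With the share of such transcripts as a term in the fit 17 of them were, where 12.8% of all genes were. Of the collagens 6 of 18 were called higher and of cell cycle genes 13 of 35: 1 PBS library carried them at bleomycin levels, and 1 library labelled bleomycin carried them at PBS levels. For all 6 of these groups fewer genes were called with the 14 day 28 libraries alone.

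Several of the 14 libraries stand apart, and the results depend on them. The library labelled bleomycin R6 went against its label. Its counts were closest to those of PBS R7, with a chi-square of 2.04 per gene over 14664 genes and a Pearson r of 0.998 on log2 CPM, the lowest chi-square of all 4278 pairs of lung libraries. The next lowest pair, R4 and R5 of the PBS group of day 42, had 4.73 per gene. The library labelled bleomycin R6 was at PBS levels for the p53 targets, with Eda2r, a p53-induced receptor of the TNF family, at 5.28 CPM, against 24.0 to 40.9 CPM in the other 6 bleomycin libraries and 4.73 to 9.91 CPM in PBS libraries. PBS R6 carried macrophage, matrix and proliferation transcripts at bleomycin levels, with the metalloproteinase inhibitor Timp1 at 83.7 CPM, against 2.36 to 11.0 CPM in the other 6 PBS libraries, but its Ccng1, a p53-induced cyclin, was 172 CPM, against 136 to 172 CPM in the other 6 PBS libraries and 384 to 535 CPM in the 6 bleomycin libraries other than R6. Its Eda2r, at 9.91 CPM, was the highest of the PBS libraries. Its nearest library was a bleomycin lung of day 21 with SB525334, at an r of 0.982.

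Bleomycin R2 held transcripts of other tissues. A list of squamous epithelium and epidermis genes summed to 11200 CPM there and a list of skeletal muscle genes to 15450 CPM, against medians of 36.6 and 605 CPM over the 93 lung libraries. Ribosomal protein genes took 9.77%, 3.10%, 7.50% and 10.35% of the counts in bleomycin R1, R3, R4 and R5, and 13.04% and 3.27% in PBS R2 and R3, against a median of 2.01% over the lung libraries and a threshold of 2.70% for a high share. All of these are on plate 1, which holds 5 libraries of each group, while R6 and R7 of each group are on plate 2. Total counts ran between 6.94 M and 19.80 M in bleomycin libraries and between 4.79 M, in PBS R2, and 20.33 M in PBS libraries. Without high-ribosomal and other-tissue libraries, the library labelled bleomycin R6 and bleomycin R7 remain in the bleomycin group and 5 libraries in the PBS group. Lung markers were high in all 14 libraries: Sftpc, surfactant protein C of type 2 cells, had 3107, 10833 and 18344 CPM in bleomycin lungs, against 7440, 8871 and 12504 CPM in PBS lungs (lowest, median and highest), and Ager, of type 1 cells, 1124, 1452 and 1601 CPM in bleomycin lungs, against 1128, 1552 and 1968 CPM in PBS lungs. Results are given over all 14 libraries, and for many of them also without R6 of both groups, a choice made after the data were seen. The R6 libraries were set apart partly by p53, macrophage, matrix and proliferation genes of these same data. Fits without R6 are therefore no test of such genes, and their values only describe the remaining libraries.

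**Figure D1:**
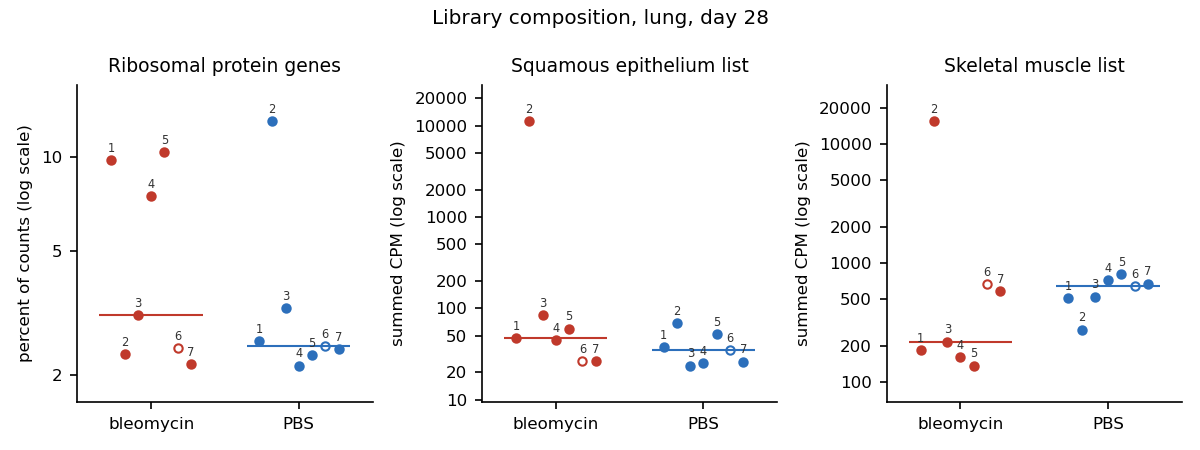
Share of counts in ribosomal protein genes (percent) and summed CPM of the squamous epithelium and skeletal muscle lists in each lung library of day 28, all on log axes; numbers are replicate numbers, open circles are R6, and lines are group medians. Bleomycin R1, R4 and R5 and PBS R2 lie between 7.50% and 13.04% ribosomal protein counts, and bleomycin R2 alone reaches 11200 and 15450 CPM in the other-tissue lists.

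Of 15647 genes tested by edgeR's quasi-likelihood test over all 93 lung libraries with plate as a term, 5948 passed an adjusted p of 0.05 (Benjamini-Hochberg), which is 38.0%. Of these 3075 were higher in bleomycin lungs, 19.7% of the genes tested, and 2873 were lower, 18.4%. The median log2 fold change of all genes was 0.01. A change of at least 2-fold was seen for 612 of the called rises and 140 of the called falls, 3.91% and 0.895% of the genes tested. Leaving out R6 of both groups gave 3862 rises and 3569 falls, 24.5% and 22.7% of 15743 genes, and 5757 of the 5948 genes were called in the same direction. The counts moved with the libraries in the fit: with the 14 day 28 libraries alone, 83 genes rose and 29 fell (0.563% and 0.197%), while limma voom with sample quality weights on the same 14 libraries called 3983 higher and 3559 lower. In edgeR's fit of the day 28 libraries with bleomycin R2, the library labelled bleomycin R6 and PBS R6 left out as well, 1337 rose and 1467 fell (9.06% and 9.94%). With the log2 ribosomal share as a term 2275 rose and 2004 fell (14.5% and 12.8%). Without the libraries with a high ribosomal share 619 rose and 185 fell (3.69% and 1.10%), and without those and the other-tissue libraries 26 rose and 2 fell (0.159% and 0.0122%). Within plate 1 alone 3391 rose and 2729 fell (20.2% and 16.3%), and within plate 2 alone 0 rose and 15 fell (0.00% and 0.0906%). Over all 14 libraries the groups did not overlap for 22 genes with bleomycin higher, 0.141% of genes tested, and for 14 with bleomycin lower, 0.0895%. Without the library labelled bleomycin R6 these were 231 and 201 genes, 1.48% and 1.28%, and without R6 of both groups 495 and 318, 3.16% and 2.03%.

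Among the p53 targets 22 of 32 tested members rose and 2 fell, against 19.7% and 18.4% of all genes tested, with a median log2 fold change of 0.66. The rises and falls numbered 22 and 4 without R6 of both groups, 9 and 0 with the day 28 libraries alone, 15 and 0 without the high-ribosomal libraries and 5 and 0 without those and the other-tissue libraries. The last of these fits gave a median of 0.24. Among all the gene lists examined, none but the p53 targets, the Spp1-expressing macrophage list and the transitional epithelium list had more than 2 members called higher with the day 28 libraries alone. None but the p53 targets and the Spp1-expressing macrophage list had more than 1 without the high-ribosomal and other-tissue libraries. In both fits no list had more than 1 member called lower. The shares of all genes, 19.7% and 18.4%, are the background for the counts of members called over all libraries that follow. Ccng1 (chr11:40748552-40755311, minus strand, GRCm38), an atypical cyclin that feeds back on p53, had 158, 403 and 535 CPM in bleomycin lungs, against 136, 155 and 172 CPM in PBS lungs (lowest, median and highest). The 6 bleomycin libraries other than R6 all lay above the 7 PBS libraries, and the library labelled bleomycin R6 lay among them at 158 CPM. Ccng1 rose with a log2 fold change of 1.37 ± 0.11, adjusted p = 5.4e-16, or 1.53 without R6 of both groups. Eda2r (chrX:97333840-97377216, minus strand) had 5.28, 29.3 and 40.9 CPM in bleomycin lungs, against 4.73, 5.97 and 9.91 CPM in PBS lungs, with the same split of libraries. It rose with a log2 fold change of 2.18 ± 0.20, adjusted p = 1.5e-13. Cdkn1a (chr17:29090976-29100727, plus strand) had 56.6, 104 and 197 CPM in bleomycin lungs, against 32.2, 40.6 and 58.1 CPM in PBS lungs. Bleomycin R3 was highest and the library labelled bleomycin R6 was lowest, at 56.6 CPM. It rose with a log2 fold change of 1.48 ± 0.18, adjusted p = 3.1e-09.

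The promoters of Cdkn1a, Ccng1 and Mdm2 are shown because these 3 genes are textbook p53 targets and rose here, so that their start regions can be read for p53 half-sites. Each window runs from 250 bases before to 50 bases after a RefSeq transcript start on GRCm38.p6, written 5′ to 3′ on the gene's strand, with matches to the 10-base p53 half-site consensus in capitals.
Cdkn1a (chr17:29090729-29091028, plus strand): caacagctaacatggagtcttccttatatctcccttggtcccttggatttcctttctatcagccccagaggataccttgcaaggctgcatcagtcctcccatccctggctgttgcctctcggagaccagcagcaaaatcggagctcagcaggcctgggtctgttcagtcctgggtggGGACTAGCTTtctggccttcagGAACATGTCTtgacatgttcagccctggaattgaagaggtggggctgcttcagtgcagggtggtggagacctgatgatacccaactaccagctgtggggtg
Ccng1 (chr11:40755237-40755536, minus strand): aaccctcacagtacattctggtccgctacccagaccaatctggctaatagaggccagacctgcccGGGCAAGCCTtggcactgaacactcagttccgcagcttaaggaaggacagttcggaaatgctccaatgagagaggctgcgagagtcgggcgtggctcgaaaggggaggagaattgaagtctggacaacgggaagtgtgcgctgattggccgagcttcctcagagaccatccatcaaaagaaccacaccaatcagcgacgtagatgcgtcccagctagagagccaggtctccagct
Mdm2 (chr10:117710709-117711008, minus strand): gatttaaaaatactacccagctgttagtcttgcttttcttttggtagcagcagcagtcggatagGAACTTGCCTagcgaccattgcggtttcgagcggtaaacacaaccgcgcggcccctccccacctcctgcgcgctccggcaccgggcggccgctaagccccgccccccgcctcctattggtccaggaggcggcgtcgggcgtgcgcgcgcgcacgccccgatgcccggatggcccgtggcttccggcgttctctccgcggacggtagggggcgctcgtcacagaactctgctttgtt
The half-site consensus reads the same on both strands. The Cdkn1a window shown holds 2 half-sites separated by 12 bases, the first starting 73 bases before the transcript start, and the Ccng1 and Mdm2 windows hold 1 half-site each, starting 185 and 186 bases before it. A second Cdkn1a window in the table, at another transcript start (chr17:29093519-29093818), holds 0 half-sites and is not shown. A pair of half-sites at most 13 bases apart was in 0.0731% of the 32851 promoter windows in the table and a single half-site in 8.36%. Of the 35 windows of the 25 p53 target genes that matched, 1 held a pair and 12 a single half-site or more, which is 34.3% of the windows. The windows of Eda2r, Psrc1, Gdf15 and Phlda3, which rose more than Mdm2, held 0 half-sites. Those of Aen and Bax held 1 each. Whether half-sites go with the rises was not tested. A match describes letters only, and p53 sites outside these windows were not searched.

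Several other called p53 targets split the libraries in the same way. Psrc1, a spindle microtubule protein, had 1.56, 14.9 and 21.0 CPM in bleomycin lungs, against 1.11, 1.87 and 4.18 CPM in PBS lungs, and Gdf15, a secreted stress cytokine, 0.862, 5.12 and 8.27 CPM in bleomycin lungs, against 0.618, 1.00 and 1.58 CPM in PBS lungs. For both genes every bleomycin library but R6 was above every PBS library. The log2 fold changes were 2.75 ± 0.32 and 2.15 ± 0.26, with edgeR adjusted p = 9.1e-10 and 1.8e-09. Phlda3, which holds back AKT signalling, rose by 1.32 ± 0.14 (log2), Zmat3, an RNA-binding zinc finger protein, by 1.38 ± 0.15, and the exonuclease gene Aen by 0.66 ± 0.086. In each of these 6 of 7 bleomycin libraries lay above all PBS libraries. Gtse1, which moves p53 out of the nucleus in the cell cycle, rose by 1.71 ± 0.29. Bax, a pore-forming death effector, had 57.6 CPM in bleomycin lungs, against 26.4 CPM in PBS lungs at the medians and rose by 1.14 ± 0.16. PBS R2, the library with the largest ribosomal share, was the highest PBS library at 53.3 CPM, and with that share as a term Bax rose by 0.77. Mdm2, the ligase that degrades p53, had 81.0, 91.5 and 111 CPM in bleomycin lungs, against 69.7, 74.5 and 86.2 CPM in PBS lungs and rose by 0.28 ± 0.050.

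Not all p53 targets rose. Rrm2b, a ribonucleotide reductase subunit that supplies nucleotides for repair, fell with a log2 fold change of -0.36 ± 0.075, adjusted p = 0.00014, and Sesn1, a stress-induced inhibitor of mTORC1, with a log2 fold change of -0.33 ± 0.10, adjusted p = 0.0058. The death genes Pmaip1 and Bbc3 had log2 fold changes of 0.0039 ± 0.11 and 0.015 ± 0.11, and the death receptor Fas had 0.025 ± 0.12, none of them called (edgeR adjusted p = 0.98, 0.93 and 0.89). Fas ranged over 28.4, 46.7 and 62.6 CPM in bleomycin lungs and 32.1, 43.5 and 64.1 CPM in PBS lungs (lowest, median, highest), and all bleomycin libraries except R3 lay inside the PBS range. PBS R6 was the highest PBS library for Pmaip1, at 19.4 CPM.

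**Figure D2:**
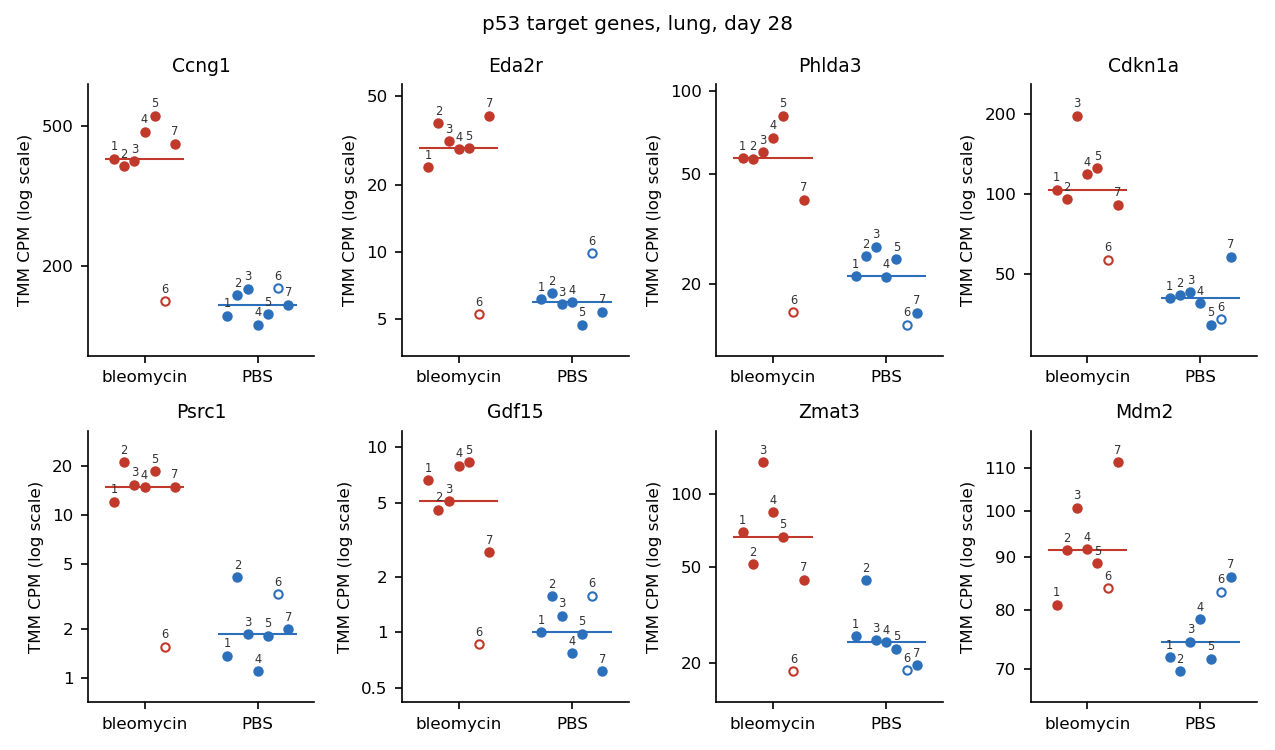
TMM-scaled CPM (log axis) of 8 p53 targets in each lung library of day 28, bleomycin left and PBS right; numbers are replicate numbers, open circles are R6, lines are medians. In 7 panels, Mdm2 apart, all bleomycin libraries except R6 lie above the PBS libraries, and the library labelled bleomycin R6 lies inside the PBS range or, for Zmat3 at 18.5 CPM, below it.

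Senescence and cell cycle inhibitor genes were mixed: 7 of 14 tested members rose and 3 fell, with a median log2 fold change of 0.33. Besides Cdkn1a and Gdf15, which the p53 list also holds, the INK4 inhibitor genes rose. Cdkn2b, which encodes p15, had 15.2, 23.1 and 31.6 CPM in bleomycin lungs, against 13.3, 15.9 and 19.3 CPM in PBS lungs, and 6 of 7 bleomycin libraries were above all PBS libraries (log2 fold change of 0.62 ± 0.12, adjusted p = 9.9e-05). Cdkn2a, which encodes p16 and ARF, was near the limit of detection at 0.0539, 0.908 and 1.65 CPM in bleomycin lungs, against 0, 0.145 and 0.619 CPM in PBS lungs (log2 fold change of 1.85 ± 0.45, adjusted p = 0.0011). Cdkn1b, which encodes p27, fell by 0.52 on the log2 scale, with 44.2 CPM in bleomycin lungs, against 95.1 CPM in PBS lungs at the medians. Igfbp3, an IGF-binding protein made by several stromal cells, fell to 11.7, 22.2 and 112 CPM in bleomycin lungs, against 75.5, 106 and 117 CPM in PBS lungs, and only the library labelled bleomycin R6 reached the PBS range (log2 fold change of -1.54 ± 0.24, adjusted p = 8.1e-07). Of the NRF2 targets, genes of the oxidant defence, 10 of 17 rose and 1 fell. Srxn1, which repairs oxidised peroxiredoxins, had 44.0 CPM in bleomycin lungs, against 24.2 CPM in PBS lungs at the medians (log2 fold change of 0.91 ± 0.13, adjusted p = 1.1e-07), and Slc7a11, the cystine importer, rose by 1.28 ± 0.32, a call that was lost without bleomycin R3.

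Genes of Spp1-expressing, lipid-associated macrophages were mostly higher: 16 of 24 tested members rose and 2 fell, against 19.7% and 18.4% of all genes tested, with a median log2 fold change of 0.81 against 0.01 for all genes. Without R6 of both groups 19 rose and 2 fell, with a median of 1.19. These counts were 5 and 0 with the day 28 libraries alone, 12 and 0 without the high-ribosomal libraries and 3 and 0 without those and the other-tissue libraries. In the last of these fits the median was 0.33. Mmp12 (chr9:7344381-7369499, plus strand), the macrophage elastase, had 5.28, 123 and 658 CPM in bleomycin lungs, against 3.83, 5.66 and 18.4 CPM in PBS lungs (lowest, median, highest). All bleomycin libraries but R6 exceeded the highest PBS library, which was PBS R6. It rose with a log2 fold change of 4.64 ± 0.51, adjusted p = 7.6e-11. Spp1 (chr5:104435118-104441050, plus strand), which encodes osteopontin, had 76.7, 856 and 1178 CPM in bleomycin lungs, against 25.6, 68.1 and 120.2 CPM in PBS lungs, split the same way, with a log2 fold change of 3.35 ± 0.35, adjusted p = 2.1e-11. Trem2, a lipid-sensing receptor, had 2.59, 39.7 and 85.1 CPM in bleomycin lungs, against 1.80, 2.63 and 19.6 CPM in PBS lungs and rose by 2.91 ± 0.38. Gpnmb, a glycoprotein of lysosome-rich macrophages, had 19.8, 164 and 431 CPM in bleomycin lungs, against 15.3, 17.9 and 98.4 CPM in PBS lungs, with PBS R6 highest among the PBS libraries at 98.4 CPM, and rose by 2.62 ± 0.38. The lysosomal proteases Ctsd and Ctsk rose by 1.28 ± 0.14 and 1.33 ± 0.21, and Atp6v0d2, a subunit of the proton pump, by 1.05 ± 0.13. Lgals3, the lectin galectin-3, rose by 1.43 ± 0.21 and Itgax, the integrin CD11c, by 0.95 ± 0.14. Whether cells of a type were more numerous or held more RNA per cell cannot be told apart in bulk tissue.

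General macrophage genes rose in 12 of 20 cases and fell in 3. The rises and falls numbered 0 and 1 with the day 28 libraries alone and 0 and 2 without the high-ribosomal libraries. Without those and the other-tissue libraries they were 0 and 0, with a median log2 fold change of 0.06. Cd68, a lysosomal membrane protein, rose by 1.32 ± 0.21 and the complement subunit gene C1qa by 1.51 ± 0.31. C1qa had 32.0, 147 and 357 CPM in bleomycin lungs, against 27.1, 31.7 and 219.6 CPM in PBS lungs, and PBS R6 held 219.6 CPM, above 4 of the 7 bleomycin libraries. The scavenger receptor Msr1 and the membrane protein Ms4a7 behaved alike, at 57.4 and 36.4 CPM in PBS R6, and without R6 of both groups their log2 fold changes were 2.85 and 2.88, against 1.45 and 1.63 with all libraries. Siglecf and Marco, known from resident alveolar macrophages, went the other way, but no list of markers of these cells was examined. Siglecf, their lectin receptor, had 7.24, 9.15 and 20.2 CPM in bleomycin lungs, against 16.8, 20.0 and 28.7 CPM in PBS lungs, and every bleomycin library but R6 was below the PBS libraries (log2 fold change of -0.95 ± 0.14, adjusted p = 2e-07). Marco, a scavenger receptor, fell to 3.65, 4.99 and 13.9 CPM in bleomycin lungs, against 8.15, 11.5 and 48.2 CPM in PBS lungs, and lost its call when PBS R6 alone was left out, while without R6 of both groups it was called at a log2 fold change of -1.27 (edgeR adjusted p = 0.0088).

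Among transitional alveolar epithelium genes 15 of 20 tested members rose and 1 fell, against 19.7% and 18.4% of all genes tested, with a median log2 fold change of 0.87. The same counts were 4 and 0 with the day 28 libraries alone, 9 and 0 without the high-ribosomal libraries and 1 and 0 without those and the other-tissue libraries. In the last of these fits the median was 0.28. The list shares Cdkn1a with the p53 list and Lgals3 with the macrophage list. Cldn4, a tight junction claudin, had 4.96, 13.7 and 29.5 CPM in bleomycin lungs, against 1.91, 5.35 and 5.90 CPM in PBS lungs, with 6 of 7 bleomycin libraries above all PBS libraries and a log2 fold change of 1.73 ± 0.45, adjusted p = 0.002. Lcn2, which binds bacterial iron carriers and is made by injured epithelium and neutrophils, had 97.2, 285 and 698 CPM in bleomycin lungs, against 67.5, 100.4 and 204 CPM in PBS lungs and rose by 1.74 ± 0.23. Areg, an EGF receptor ligand, rose by 1.34 ± 0.24, Krt18, a simple epithelial keratin, by 0.59 ± 0.12 and the lysosomal protease Ctsh by 1.04 ± 0.14. Sprr1a, a cornified envelope precursor, had 0.539, 4.25 and 24.3 CPM in bleomycin lungs, against 0.225, 0.442 and 2.35 CPM in PBS lungs. Krt8, the partner of Krt18, had 237 CPM in bleomycin lungs, against 223 CPM in PBS lungs at the medians and a log2 fold change of 0.30 ± 0.11, adjusted p = 0.026, a call lost without bleomycin R2, bleomycin R5, PBS R4 or PBS R6 in turn. Plaur, the urokinase receptor, was the member called lower (log2 fold change of -0.26 ± 0.10, adjusted p = 0.039), and leaving out any of 9 libraries in turn ended that call.

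Of type 1 markers 6 of 17 rose and 4 fell, and of type 2 markers 5 of 18 rose and 0 fell, against 19.7% and 18.4% of all genes tested. The type 1 falls and the type 2 rises were near the background. Pdpn (chr4:143267431-143299564, minus strand), a surface glycoprotein of type 1 cells that other injured cells also make, had 108, 139.6 and 169.6 CPM in bleomycin lungs, against 81.2, 87.6 and 107 CPM in PBS lungs, and every bleomycin library, the library labelled bleomycin R6 included, was above every PBS library (log2 fold change of 0.58 ± 0.10, adjusted p = 1.6e-05). Anxa1, a phospholipid-binding regulator of inflammation chosen here after its values were seen because its groups did not overlap either, had 299, 493 and 632 CPM in bleomycin lungs, against 168, 239 and 299 CPM in PBS lungs. Ager and Sftpc, given above, had log2 fold changes of -0.087 ± 0.10 and 0.24 ± 0.17 (edgeR adjusted p = 0.52 and 0.27). Scd1, the fatty acid desaturase active in surfactant synthesis, had 2824, 4008 and 4879 CPM in bleomycin lungs, against 1017, 2104 and 2983 CPM in PBS lungs and rose by 0.84 ± 0.15.

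**Figure D3:**
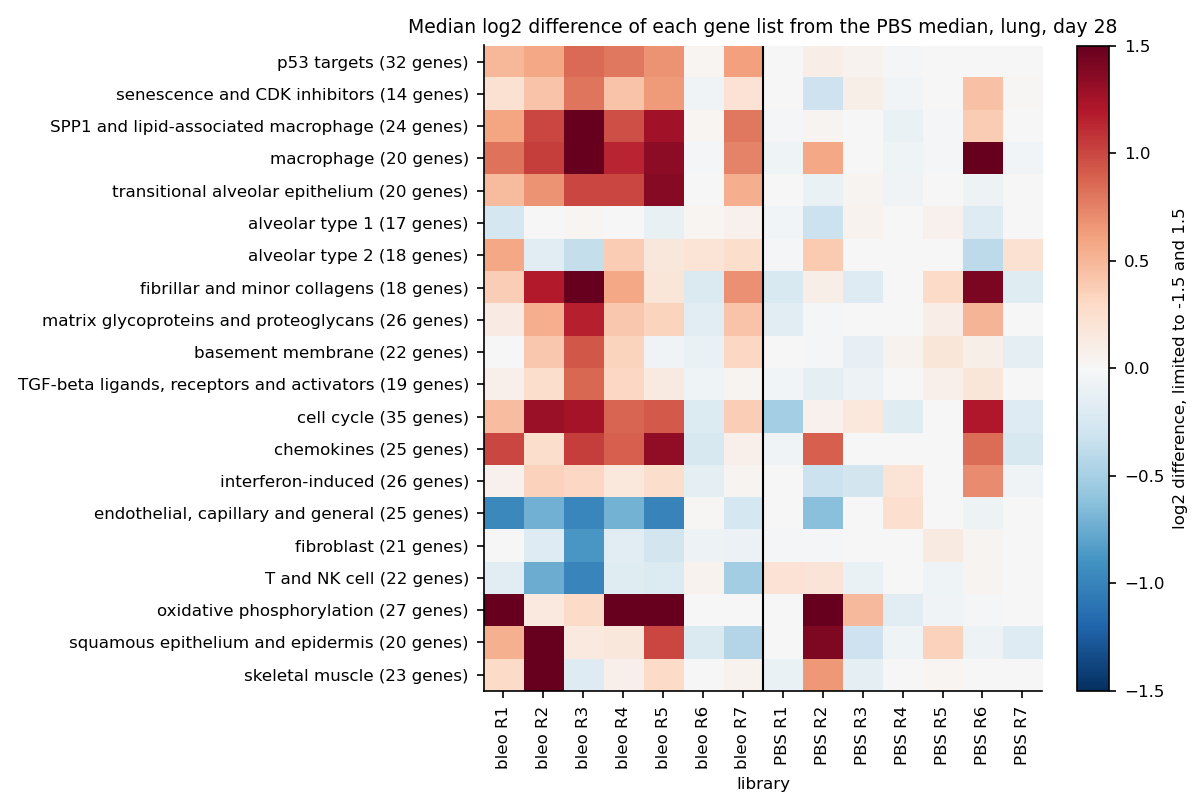
Colours give, for 20 gene lists (rows, with the number of members tested) and the 14 lung libraries of day 28 (columns, bleomycin left of the line), the median over members of the log2 difference in CPM from the PBS median, limited to -1.5 and 1.5. The column of the library labelled bleomycin R6 is pale, at 0.02 for p53 targets and 0.01 for capillary endothelium, PBS R6 is red for macrophages (1.52), collagens (1.41) and cell cycle (1.20), and the oxidative phosphorylation row is red in bleomycin R1, R4 and R5 and PBS R2.

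Matrix genes depended on which libraries were in the fit. Of the collagens 6 of 18 rose and 1 fell over all 14 libraries, against 19.7% and 18.4% of all genes tested. Without R6 of both groups 16 rose and 0 fell, where 24.5% and 22.7% of all genes did. The counts were 0 and 0 with the day 28 libraries alone, 1 and 0 without the high-ribosomal libraries and 0 and 0 without those and the other-tissue libraries. The median log2 fold change of 0.34 over all libraries was -0.15 in the last of these fits and -0.55 on plate 2 alone. Col1a1 (chr11:94936224-94953042, plus strand), a chain of type I collagen, had 45.4, 351 and 1198 CPM in bleomycin lungs, against 41.9, 73.2 and 375 CPM in PBS lungs, with bleomycin R3 highest, and bleomycin R2, R5 and R7 and the library labelled bleomycin R6 inside the PBS range (log2 fold change of 1.34 ± 0.36, adjusted p = 0.0028). The call was lost without bleomycin R3, and without R6 of both groups the log2 fold change was 2.04. Col3a1, the type III chain, had 437, 1192 and 2392 CPM in bleomycin lungs, against 439, 729 and 3784 CPM in PBS lungs, the highest value being PBS R6. It was not called over all libraries (log2 fold change of 0.35 ± 0.26, edgeR adjusted p = 0.29), and without R6 of both groups its log2 fold change was 1.16. Col28a1, a minor collagen, had 1.99, 6.62 and 22.2 CPM in bleomycin lungs, against 0.522, 1.85 and 5.46 CPM in PBS lungs and rose by 2.21 ± 0.34. Col6a5 was the collagen called lower (log2 fold change of -2.01 ± 0.49, adjusted p = 0.0011). It reached 72.2 CPM in PBS R6 and at most 2.61 CPM in the other PBS libraries, and without R6 of both groups it was higher in bleomycin lungs, at 0.81.

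Of matrix glycoproteins and proteoglycans 12 of 26 rose and 4 fell (17 and 2 without R6 of both groups). Fn1, fibronectin, had 267, 1491 and 4716 CPM in bleomycin lungs, against 275, 407 and 2287 CPM in PBS lungs, and Tnc, tenascin C, 27.0, 151 and 338 CPM in bleomycin lungs, against 17.8, 26.8 and 278 CPM in PBS lungs. In both genes PBS R6 was above every bleomycin library but R3, and the library labelled bleomycin R6 was inside the PBS range for Tnc and below it for Fn1. Fn1 rose by 1.38 ± 0.31 and Tnc by 1.52 ± 0.38, or by 2.31 and 2.82 without R6 of both groups. Mfap5, a microfibril protein, had 20.6, 58.3 and 74.9 CPM in bleomycin lungs, against 17.8, 25.6 and 35.9 CPM in PBS lungs and rose by 0.94 ± 0.16, and the matrix Gla protein gene Mgp rose by 1.07 ± 0.21. Eln, elastin, rose by 1.16 ± 0.30. Ogn, a small leucine-rich proteoglycan, fell to 99.9, 188 and 456 CPM in bleomycin lungs, against 386, 474 and 515 CPM in PBS lungs, with every bleomycin library but R6 below the PBS libraries (log2 fold change of -0.92 ± 0.14, adjusted p = 1.1e-06). Postn, periostin, and Acta2, smooth muscle actin and the usual myofibroblast marker, had log2 fold changes of 0.062 ± 0.13 and -0.18 ± 0.12 (edgeR adjusted p = 0.74 and 0.24). Acta2 had 166, 191 and 245 CPM in bleomycin lungs, against 172, 198 and 289.7 CPM in PBS lungs.

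Among basement membrane genes 11 of 22 tested members rose and 3 fell. Lama1, a laminin chain, and Col4a1, a chain of type IV collagen, rose by 1.41 ± 0.31 (log2) and 0.71 ± 0.18, and Lama4, a laminin chain of vessels, fell by 0.41 (log2, adjusted p = 0.0025, edgeR). Of cross-linking and processing genes 7 of 20 rose and 3 fell: Lox, lysyl oxidase, rose by 0.84 ± 0.19, a call that was lost without bleomycin R3, where it was 348 CPM, and Pcolce2, a procollagen protease enhancer, fell to 34.7, 134 and 195 CPM in bleomycin lungs, against 170.2, 212 and 245 CPM in PBS lungs. Of metalloproteinases and their inhibitors 7 of 19 rose and 2 fell, or 13 and 2 without R6 of both groups. Besides Mmp12, the secreted metalloproteinase genes Mmp19 and Mmp2 rose by 1.49 ± 0.18 and 1.13 ± 0.17, and the gelatinase Mmp9, largely from neutrophils, fell to 2.42, 4.14 and 7.33 CPM in bleomycin lungs, against 6.49, 8.76 and 32.4 CPM in PBS lungs (log2 fold change of -1.54 ± 0.29, adjusted p = 3.3e-05). Timp1 had 3.34, 25.3 and 53.9 CPM in bleomycin lungs, against 2.36, 3.80 and 83.7 CPM in PBS lungs. It was not called over all libraries (log2 fold change of 0.90 ± 0.51, edgeR adjusted p = 0.16). Without R6 of both groups, set apart partly by Timp1 itself, its log2 fold change was 2.90.

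Of TGF-beta ligands, receptors and activators 11 of 19 tested members rose and 2 fell. These counts were 0 and 0 with the day 28 libraries alone. Without the high-ribosomal libraries they were 2 and 0, with a median log2 fold change of -0.02. Tgfb2, a ligand, had 23.2, 37.0 and 49.0 CPM in bleomycin lungs, against 21.5, 24.2 and 34.4 CPM in PBS lungs and rose by 0.54 ± 0.11. Itgb6, whose integrin frees latent TGF-beta on epithelium, rose by 0.69 ± 0.13, and Ltbp2, a matrix protein of the latent TGF-beta binding protein family, had 66.4, 211 and 746 CPM in bleomycin lungs, against 61.6, 94.2 and 140.2 CPM in PBS lungs (log2 fold change of 1.37 ± 0.28, adjusted p = 0.00014). The co-receptor Tgfbr3 was called lower (log2 fold change of -0.59 ± 0.13, adjusted p = 0.00025). Among TGF-beta responsive genes, which share members with the lists above, 12 of 26 tested members rose and 3 fell. The same counts were 0 and 0 with the day 28 libraries alone and 1 and 0 without the high-ribosomal libraries. Pmepa1, a feedback inhibitor, rose by 0.84 ± 0.14 and Ccn2, a matricellular growth factor formerly called CTGF, by 0.68 ± 0.15, while Smad6, an inhibitory SMAD that answers mainly to BMP signals, fell to 24.5, 28.9 and 83.5 CPM in bleomycin lungs, against 49.1, 80.3 and 115 CPM in PBS lungs (log2 fold change of -0.96 ± 0.19, adjusted p = 0.0001).

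Capillary and general endothelial genes were lower with no exception among the calls: 20 of 25 tested members fell and 0 rose, with a median log2 fold change of -0.55. Over all genes 18.4% fell. Without R6 of both groups 23 of these genes fell, with the day 28 libraries alone 1 and without the high-ribosomal and other-tissue libraries 0. Kdr (chr5:75932827-75978458, minus strand), the VEGF receptor 2, had 136, 181 and 456 CPM in bleomycin lungs, against 217, 390.4 and 509 CPM in PBS lungs (log2 fold change of -0.74 ± 0.14, adjusted p = 3.4e-05). Bleomycin R2 and R7 and the library labelled bleomycin R6 lay inside the PBS range, and PBS R2 was the lowest PBS library. Cldn5, the endothelial claudin, had 112, 187 and 345 CPM in bleomycin lungs, against 229.8, 348 and 416 CPM in PBS lungs, Plvap, which forms the diaphragms of fenestrae, 63.3, 93.4 and 151 CPM in bleomycin lungs, against 142, 169.9 and 207 CPM in PBS lungs, and both were below all PBS libraries in 6 of 7 bleomycin libraries. Tek, the angiopoietin receptor, fell by 0.83 and Ednrb, the endothelin B receptor of aerocyte capillaries, by 1.07 on the log2 scale. This list was low in libraries with a large ribosomal share and in others. The median log2 difference from PBS was -0.96, -0.71 and -1.0 in bleomycin R1, R4 and R5 and -0.63 in PBS R2. It was -0.72, -0.98 and -0.27 in bleomycin R2, R3 and R7, with ribosomal shares of 2.3%, 3.1% and 2.2%. In PBS R3, with a share of 3.27%, it was -0.00062. With the log2 ribosomal share as a term 17 members fell, where 12.8% of all genes did. Without the libraries of high ribosomal share 1 member fell, with a median of -0.27, where 1.10% of all genes fell. The part of the ribosomal share in this result was not tested further.

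Genes of larger vessels went both ways. In the list of venous, arterial and lymphatic genes 7 of 20 tested members rose and 8 fell. Ackr1, the chemokine-binding receptor of venules, had 0.162, 1.41 and 4.94 CPM in bleomycin lungs, against 0.0482, 0.261 and 0.541 CPM in PBS lungs and rose by 2.79 ± 0.47, with 6 of 7 bleomycin libraries above all PBS libraries. Prox1, which sets lymphatic identity, and Ccl21a, a lymphatic chemokine with near-identical gene copies between which reads may be split, rose by 0.81 ± 0.20 and 0.81 ± 0.15. The arterial connexin Gja4 rose by 0.42 ± 0.15, whereas the arterial genes Efnb2, an ephrin, and Dll4, a Notch ligand, and the lymphatic receptor Lyve1 fell by 0.71, 0.44 and 0.58 (log2, edgeR adjusted p = 3.4e-05, 0.0043 and 0.012). Of fibroblast markers 11 of 21 fell and 2 rose. Slc7a10, an amino acid transporter on the list, had 1.29, 8.85 and 13.8 CPM in bleomycin lungs, against 14.6, 27.2 and 28.2 CPM in PBS lungs, and its groups did not overlap (log2 fold change of -1.51 ± 0.22, adjusted p = 1.6e-07). Pdgfra, the PDGF receptor alpha, had 202, 275 and 525 CPM in bleomycin lungs, against 303, 529 and 607 CPM in PBS lungs (log2 fold change of -0.68 ± 0.12, adjusted p = 1.6e-05), and Inmt, a methyltransferase, fell by 1.02. Among smooth muscle and pericyte markers 2 of 20 tested members rose and 5 fell: the contractile genes Myh11 and Cnn1 fell by 0.68 and 0.72, and the pericyte marker Rgs5 rose by 1.04.

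**Figure D4:**
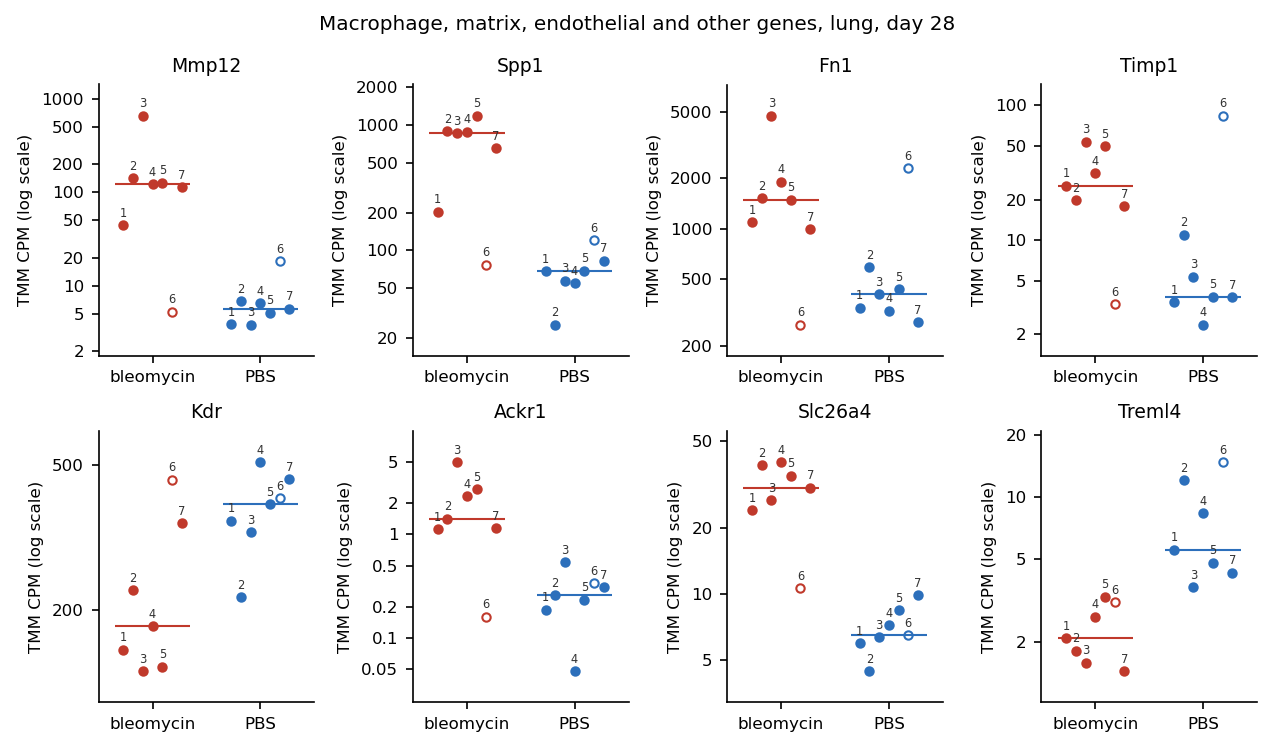
TMM-scaled CPM (log axis) of 8 genes in each lung library of day 28, bleomycin left and PBS right; numbers are replicate numbers, open circles are R6, lines are medians. Slc26a4 and Treml4 separate all 14 libraries, Timp1 is highest in PBS R6 at 83.7 CPM, and Kdr in bleomycin R7 lies inside the PBS range.

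Of T and NK cell genes 3 of 22 rose and 7 fell, against 19.7% and 18.4% of all genes tested. The rises were below the background share. With the day 28 libraries alone, and again without the high-ribosomal libraries, 0 rose and 0 fell. The 3 rises were Foxp3, Ctla4 and Il2ra, all known from regulatory T cells, but no list of markers of these cells was examined. Foxp3, the factor that defines these cells, had 0.216, 2.01 and 4.65 CPM in bleomycin lungs, against 0.125, 0.281 and 0.783 CPM in PBS lungs (log2 fold change of 2.56 ± 0.46, adjusted p = 1.9e-05). Ctla4, a checkpoint receptor, rose by 0.86 ± 0.23, and Il2ra, an interleukin 2 receptor chain that activated T cells also express, by 0.89 ± 0.23. PBS R2 was the highest PBS library for Il2ra, at 5.22 CPM. Foxp3 was below 5 CPM in every library, and bleomycin R2 and R7 and the library labelled bleomycin R6 lay inside the PBS range. Falls included Lef1, a factor of naive T cells, at -0.92 ± 0.20, the CD8 co-receptor gene Cd8a at -0.88 ± 0.25 and the cytotoxic protease Gzmb at -0.80 ± 0.21. Of B and plasma cell genes 1 of 16 rose and 2 fell, and without R6 of both groups 7 fell. Treml4 (chr17:48264295-48275360, plus strand), a receptor on nonclassical monocytes and CD8 dendritic cells in the mouse, had 1.45, 2.10 and 3.31 CPM in bleomycin lungs, against 3.69, 5.58 and 14.7 CPM in PBS lungs, and all bleomycin libraries were below all PBS libraries (log2 fold change of -1.74 ± 0.26, adjusted p = 6.6e-07).

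Of neutrophil and granule genes 3 of 12 rose and 5 fell, and without R6 of both groups 4 and 2. Ngp, a granule protein, was 37.5 CPM in PBS R6 and 0.639 to 17.0 CPM in the other PBS libraries, and its call was lost without PBS R6. Cxcr2, the neutrophil chemokine receptor, had 1.94, 4.44 and 6.15 CPM in bleomycin lungs, against 4.42, 6.02 and 19.9 CPM in PBS lungs. Among chemokines 7 of 25 tested members rose and 2 fell, against 19.7% and 18.4% of all genes tested, and without R6 of both groups 13 and 1, where 24.5% and 22.7% of all genes did. The counts were 0 and 0 with the day 28 libraries alone, 0 and 2 without the high-ribosomal libraries and 0 and 0 without those and the other-tissue libraries. The median of 0.57 over all libraries was -0.46 in the last of these fits. Ccl2, which attracts monocytes, had 0.701, 6.93 and 13.4 CPM in bleomycin lungs, against 1.00, 1.40 and 13 CPM in PBS lungs, with PBS R6 at 13 CPM. It was not called over all libraries (log2 fold change of 0.95 ± 0.47, edgeR adjusted p = 0.098), and without R6 of both groups its log2 fold change was 2.33. The membrane-bound chemokine Cx3cl1 was called lower, at -0.53 ± 0.11. Retnla, a secreted product of type 2 inflammation, had 49.3, 362 and 1059 CPM in bleomycin lungs, against 18.9, 49.4 and 245 CPM in PBS lungs and rose by 2.69 ± 0.44. Of interferon-induced genes 11 of 26 rose and 5 fell. With the day 28 libraries alone 0 rose and 0 fell, and without the high-ribosomal libraries 0 rose and 4 fell. Over all libraries Isg15, a ubiquitin-like modifier, rose by 1.10 ± 0.25. Gbp2, a guanylate-binding protein induced mainly by interferon gamma, fell to 47.6, 59.8 and 113 CPM in bleomycin lungs, against 68.1, 99.9 and 463 CPM in PBS lungs. The highest of those is PBS R6, and without R6 of both groups the log2 fold change of Gbp2 was -0.78.

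Cell cycle genes rose in 13 of 35 cases and fell in 0, against 19.7% and 18.4% of all genes tested, and without R6 of both groups 25 rose. With the ribosomal share as a term 7 rose. The counts were 0 and 0 with the day 28 libraries alone, 0 and 0 without the high-ribosomal libraries and 0 and 0 without those and the other-tissue libraries. The median log2 fold change of 0.65 over all libraries was -0.15 in the last of these fits. Mki67, a marker of cycling cells, had 37.7, 96.8 and 163 CPM in bleomycin lungs, against 23.9, 58.1 and 221 CPM in PBS lungs, with PBS R6 highest of all 14 libraries. It was not called over all libraries (log2 fold change of 0.63 ± 0.32, edgeR adjusted p = 0.11), and without R6 of both groups its log2 fold change was 1.32. Birc5, survivin, and Cdk1, the mitotic kinase, rose by 1.24 ± 0.35 and 1.14 ± 0.37 over all libraries. Oxidative phosphorylation genes rose in 17 of 27 cases and fell in 0, but their level moved with the ribosomal share: the median log2 difference from PBS was 2.25, 2.00 and 2.50 in bleomycin R1, R4 and R5 and 2.44 in PBS R2, and at most 0.49 in the other 10 libraries. Ndufa4, a respiratory chain subunit, had 85.5, 109 and 446 CPM in bleomycin lungs, against 69.6, 85.5 and 327 CPM in PBS lungs, and without the libraries of high ribosomal share 0 of the 27 genes were called.

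The genes with the largest changes in the comparison fall in 2 sets. The 5 largest rises by fold, Acta1, Myh1 and Mylpf of skeletal muscle and Rptn and Asprv1 of epidermis, rest on bleomycin R2, where they had 1210, 765, 189, 999 and 408 CPM; the highest value of any of them in the other 13 libraries was 6.58 CPM. The skeletal muscle and squamous lists had 21 of 23 and 12 of 20 members called higher with bleomycin R2 and 1 and 2 without it. The largest falls were Ngp and Col6a5, given above, Apol11b, of a family of close copies (-2.65 ± 0.56), Fabp1, a lipid carrier best known from liver (-2.53 ± 0.86), and Cpne5, a calcium-dependent membrane-binding protein (-2.0 ± 0.25). Cpne5 had 0.589, 1.29 and 6.57 CPM in bleomycin lungs, against 5.74, 7.32 and 10.7 CPM in PBS lungs, with only the library labelled bleomycin R6 inside the PBS range.

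The other set was called over all libraries and again in the fit without any high-ribosomal or other-tissue library, 27 genes in all. Of its rises whose log2 CPM averaged 1 or more, the 10 largest were Mmp12, Spp1, Psrc1, Eda2r, Slc26a4, Plcd4, Fetub, Ndnf, Syngr1 and Pgc, and Treml4 was its fall. Slc26a4 (chr12:31519827-31559969, minus strand), the anion exchanger pendrin, had 10.7, 30.6 and 40.1 CPM in bleomycin lungs, against 4.44, 6.47 and 9.89 CPM in PBS lungs. All 7 bleomycin libraries lay above all PBS libraries, the library labelled bleomycin R6 at 10.7 CPM just over PBS R7 at 9.89 CPM, with a log2 fold change of 2.05 ± 0.21, adjusted p = 1.9e-11 and an exact permutation p within plates of 0.00132, two-sided, the smallest value its 1512 arrangements allow. Ndnf, a secreted glycoprotein, had 278, 977 and 1088 CPM in bleomycin lungs, against 210.4, 290.4 and 337 CPM in PBS lungs (log2 fold change of 1.54 ± 0.17, adjusted p = 6.9e-11). Plcd4, a phospholipase C, rose by 1.97 ± 0.25, Fetub, a fetuin, by 1.75 ± 0.41, Syngr1, a synaptic vesicle protein, by 1.49 ± 0.23 and Pgc, the pepsinogen progastricsin that type 2 cells also express, by 1.47 ± 0.22. In the fit without the high-ribosomal and other-tissue libraries, which sets the library labelled bleomycin R6 and bleomycin R7 against 5 PBS libraries, the log2 fold changes of Eda2r, Slc26a4 and Spp1 were 1.76, 1.41 and 2.10. In that fit several genes named above turned round without being called, with log2 fold changes of -0.27 for Fn1, -0.56 for Col1a1, -0.040 for C1qa, -0.30 for Birc5, -0.20 for Cdk1, -0.23 for Isg15 and -0.34 for Cdkn2a.

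Day 28 lies between day 21 and day 42, and the effect of bleomycin was compared between these days, each against its own PBS group. Of 15647 genes, 226 differed between day 28 and day 21, which is 1.44%; 124 had a higher and 102 a lower bleomycin effect on day 28 (0.792% and 0.652%). Between day 28 and day 42 the count was 445, which is 2.84%, with 143 higher and 302 lower (0.914% and 1.93%). Both counts depend on single PBS libraries: leaving out PBS R2 gave 1469 and 2372, and leaving out PBS R6 gave 116 and 294. On day 21 itself 2487 genes rose and 3034 fell, 15.9% and 19.4% (35.3% in all), and on day 42 1974 and 1063, 12.6% and 6.79% (19.4% in all). Among the p53 targets 23 rose on day 21, 22 on day 28 and 19 on day 42, with medians of 0.79, 0.66 and 0.42 (log2). Without R6 of both groups the day 28 median was 0.76, near that of day 21, with 22 members called higher. The day 28 fold changes that follow include the library labelled bleomycin R6. The fold change of Ccng1 was 1.66 ± 0.11, 1.37 ± 0.11 and 0.89 ± 0.10 on the 3 days, and that of Eda2r was 2.69 ± 0.19, 2.18 ± 0.20 and 2.33 ± 0.18. Neither differed between day 28 and the other days at the threshold (edgeR adjusted p = 0.35 and 0.064 for Ccng1, 0.34 and 0.76 for Eda2r).

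Of the p53 targets, Mdm2 and Trp53inp1 had a lower effect on day 28 than on day 21, by 0.26 and 0.55 on the log2 scale, and both are named after their values were seen. The 5 smallest p among lower effects on day 28 than on day 21 were Plin2, a lipid droplet protein, Abcg1, a cholesterol exporter, Angptl4, a lipase inhibitor, Lilra5, a myeloid receptor, and Mfap4, a microfibril protein. Plin2 had a fold change of 1.0 ± 0.095 on day 21, 0.21 ± 0.10 on day 28 and 0.42 ± 0.092 on day 42 (log2), and its effect was lower on day 28 than on day 21 by 0.79 ± 0.14 (edgeR adjusted p = 0.00082). For Abcg1 the 3 values were 0.42 ± 0.073, -0.13 ± 0.076 and 0.17 ± 0.070, and for Angptl4 1.51 ± 0.21, -0.62 ± 0.22 and -0.34 ± 0.20. Of the 5 smallest p among higher effects on day 28 than on day 21, 4 were muscle or epidermal genes highest in bleomycin R2, and the other was Trp53bp2, a p53-binding protein, with -0.34 ± 0.057 on day 21 and 0.11 ± 0.059 on day 28. Against day 42, the same rule gave muscle and epidermal genes as higher and liver genes as lower; of the liver list 9 of 9 members were called higher in bleomycin on day 42, at a median log2 fold change of 10.41, and 0 of 9 on day 28. Liver transcripts summed to 29620 CPM in bleomycin R1 of day 42, the only lung library over its threshold of 4814 CPM.

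**Figure D5:**
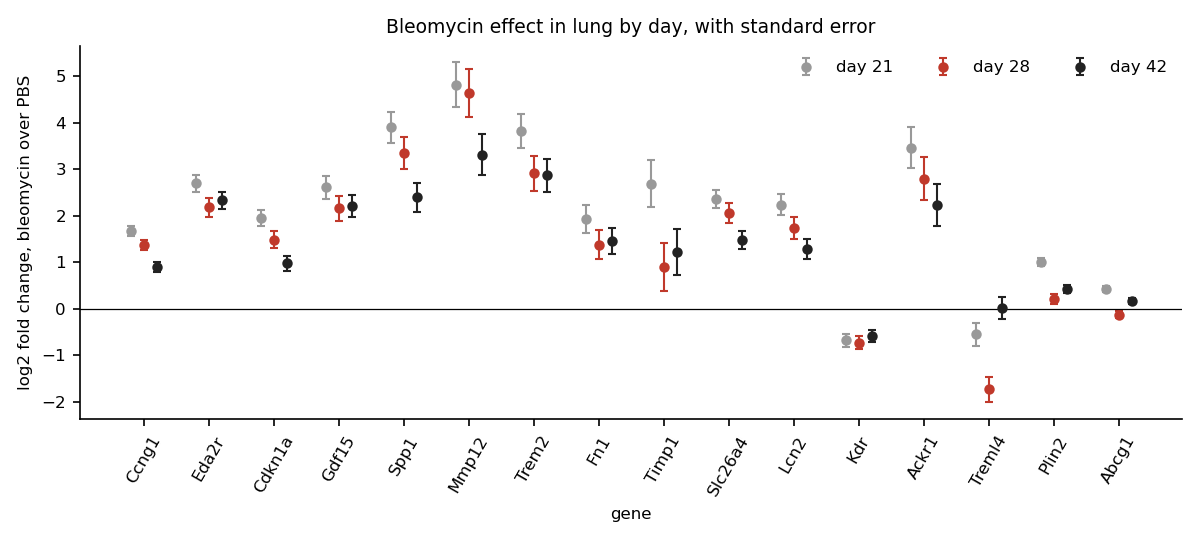
Log2 fold change of bleomycin over PBS in lung for 16 genes on days 21, 28 and 42 (points) with the standard error of the edgeR fit (bars). Mmp12, Spp1 and the p53 targets lie above 0 on all 3 days, and Plin2 is at 1.0 on day 21 and 0.21 on day 28.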

How the data were processed

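Expected counts per gene were deposited by the authors for lung and skin together. RSEM, edgeR and GRCm38 are named without versions in the submitters' processing notes; use of strand in counting is not given in the sources used here. This table holds 22095 gene IDs, of which 21852 matched a GENCODE M21 symbol. The counts, 83.7% of them whole, were rounded. A second table deposited by the authors, of plate-corrected log2 values for 16160 genes, served as an alternative only.

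All 93 lung libraries in 12 groups were fitted with plate as a term by edgeR 4.0.16 (R 4.3.3; TMM scaling, filterByExpr, robust quasi-likelihood F test). Genes with an adjusted p under 0.05 by Benjamini-Hochberg were called, and standard errors came from the fold change and its F statistic. Values are TMM-scaled CPM, with 4.79 to 20.33 M counts per library. For single genes an exact permutation within plates was added. DESeq2 1.42.0 and limma 3.58.1 were alternatives, as were other filters, terms and sets of libraries. A ribosomal share over 3 scaled MADs above the median was called high, and other-tissue lists at over 10 times their median. The scripts were tested on simulated data.

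Members and gene lists were chosen with earlier results of these data known. Genes are named by rule: the 10 largest changes called with and without the doubtful libraries, the 5 largest by fold alone, fixed anchor genes, members of each list with the smallest p or the opposite direction, and the 5 smallest p of each difference between days; others are marked where they appear. Promoters are from RefSeq on GRCm38.p6.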

Additional observations from a re-analysis of the deposited data

Results flagged for a closer look

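A library was singled out for a value when its gap to the nearest of the other 6 libraries of its group took more of the group's whole range than Dixon's 95% critical value. Values were on the log2 scale, except total counts. Of 278 values tested in groups of 7, 58 met this. The critical value is set for about 1 in 20 by chance. Some of these genes were named because they rest on single libraries, so 58 cannot be set against that rate. They gathered in few libraries, with 17 in PBS R6, 14 in the library labelled bleomycin R6, 13 in PBS R2, 8 in bleomycin R2, 5 in bleomycin R3 and 1 in bleomycin R7.

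In the library labelled bleomycin R6 the values far from the other bleomycin libraries were Ccng1 at 158 CPM, Eda2r at 5.28 CPM, Psrc1 at 1.56 CPM, Phlda3 at 15.8 CPM, Aen at 29.5 CPM, Gtse1 at 1.13 CPM, Trem2 at 2.59 CPM, Siglecf at 20.2 CPM, Marco at 13.9 CPM, Timp1 at 3.34 CPM, Mmp2 at 63.2 CPM, Ctla4 at 1.51 CPM, Cpne5 at 6.57 CPM and Slc26a4 at 10.7 CPM. In the skin libraries with the same labels, which the labels do not tie to the same mice, bleomycin R6 was at 37.2 CPM for Eda2r and 53.9 CPM for Timp1, inside the bleomycin ranges of 30.5 to 47.8 and 41.8 to 72.1 CPM, with PBS ranges of 6.74 to 22.7 and 3.57 to 10.4 CPM.

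In bleomycin R2 they were Acta1 at 1210 CPM, Myh1 at 765 CPM, Mylpf at 189 CPM, Rptn at 999 CPM, Asprv1 at 408 CPM and Fetub at 18.7 CPM, beside the sums of 11200 CPM for the squamous epithelium list and 15450 CPM for the skeletal muscle list. In bleomycin R3 they were Acta2 at 245 CPM, Ccn2 at 401 CPM, Lox at 348 CPM, Pcolce2 at 34.7 CPM and Slc7a10 at 1.29 CPM, and in bleomycin R7 Trp53inp1 at 403 CPM.

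In PBS R6 they were Eda2r at 9.91 CPM, Pmaip1 at 19.4 CPM, Mmp12 at 18.4 CPM, Gpnmb at 98.4 CPM, Ctsd at 916 CPM, Msr1 at 57.4 CPM, Marco at 48.2 CPM, Timp1 at 83.7 CPM, Scd1 at 1017 CPM, Fn1 at 2287 CPM, Tnc at 278 CPM, Col3a1 at 3784 CPM, Col6a5 at 72.2 CPM, Mmp2 at 199 CPM, Mki67 at 221 CPM, Gbp2 at 463 CPM and Lilra5 at 15.2 CPM. In PBS R2 they were Zmat3 at 43.9 CPM, Aen at 21.9 CPM, Bax at 53.3 CPM, Siglecf at 28.7 CPM, Tek at 203 CPM, Ednrb at 46.7 CPM, Pdgfra at 303 CPM, Ndufa4 at 327 CPM, Myh1 at 6.53 CPM, Plcd4 at 0.522 CPM and Il2ra at 5.22 CPM, beside its total of 4.79 M counts, the lowest of the 14, and its ribosomal protein share of 13.04%.

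The effect of bleomycin differed between days by edgeR's test of the difference for a few genes named by rule. Day 28 minus day 21, the log2 difference was 0.44 for Trp53bp2, -0.56 for Abcg1, -2.13 for Angptl4, -0.88 for Lilra5, -1.25 for Mfap4 and -0.79 for Plin2. Day 28 minus day 42, it was -0.55 for Lilra5.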

How the results depend on the processing

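The main count of 5948 (3075 higher, 2873 lower) kept within 1.5 times with another normalization, DESeq2, plate sections or no plate term, no count filter, the log2 table as deposited, plate 1 alone, the ribosomal share as a term and without R6 of both groups. It was 112 (83 higher, 29 lower) with the day 28 libraries alone, where limma voom with sample quality weights gave 7542 (3983 higher, 3559 lower) and, over all lung libraries, 7618 (3779 higher, 3839 lower). In edgeR it was 330 (229 higher, 101 lower) with the ribosomal share added to the day 28 libraries, 2804 (1337 higher, 1467 lower) without bleomycin R2, the library labelled bleomycin R6 and PBS R6, and 2654 (1491 higher, 1163 lower) with both. It was 804 (619 higher, 185 lower) without high-ribosomal libraries, 28 (26 higher, 2 lower) without those and other-tissue libraries, and 15 (0 higher, 15 lower) on plate 2. Leaving out 1 library at a time gave 3989 to 7512 calls, 2364 to 4311 higher and 1625 to 3536 lower, the lowest each without bleomycin R5. Same-number libraries of the groups had correlations of -0.49 to -0.15 after group and plate means were removed. On plate 2, with R6 and R7 alone in each group, their values are equal by construction. Whether replicate numbers pair the libraries was not settled. With the replicate block the count was 5673 (2875 higher, 2798 lower), and 0 (0 higher, 0 lower) over the day 28 libraries alone.

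The count of differences between day 28 and day 21, 226 (124 higher, 102 lower), became 399 (215 higher, 184 lower) with DESeq2, 4619 (2496 higher, 2123 lower) with limma voom and sample quality weights, 120 (34 higher, 86 lower) with limma-trend on the deposited log2 table, 129 (70 higher, 59 lower) with no plate term, 88 (39 higher, 49 lower) with the replicate block, 969 (543 higher, 426 lower) without high-ribosomal libraries, 660 (349 higher, 311 lower) without other-tissue libraries, 1959 (851 higher, 1108 lower) without both, 0 (0 higher, 0 lower) on plate 1, 1604 (610 higher, 994 lower) on plate 2, 608 (345 higher, 263 lower) without bleomycin R2, the library labelled bleomycin R6 and PBS R6 and 152 (73 higher, 79 lower) with no count filter. Leaving out 1 library gave 116 to 1469 calls, 66 to 1014 higher and 45 to 455 lower. Between day 28 and day 42, 445 (143 higher, 302 lower) became 5441 (2561 higher, 2880 lower) with limma voom and sample quality weights, 0 (0 higher, 0 lower) with limma-trend on the deposited log2 table, 261 (96 higher, 165 lower) with 4 plate sections, 41 (18 higher, 23 lower) with the replicate block, 179 (126 higher, 53 lower) without other-tissue libraries, 192 (84 higher, 108 lower) without both, 0 (0 higher, 0 lower) on plate 1, 3 (0 higher, 3 lower) on plate 2, 1143 (539 higher, 604 lower) without R6 of both groups, 2655 (1246 higher, 1409 lower) without bleomycin R2, the library labelled bleomycin R6 and PBS R6, 435 (226 higher, 209 lower) without high-ribosomal libraries and 398 (202 higher, 196 lower) with DESeq2. Leaving out 1 library gave 294 to 2372 calls, 102 to 1446 higher and 189 to 926 lower.

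The log2 fold change of a named gene changed sign on plate 2 alone for Rrm2b (0.062), Sesn1 (0.16), Cdkn2a (-1.08), Cdkn1b (0.028), Slc7a11 (-0.28), C1qa (-0.89), Cd68 (-0.093), Ms4a7 (-0.74), Msr1 (-0.81), Fn1 (-1.03), Tnc (-0.90), Col1a1 (-1.32), Ccl21a (-0.16), Lef1 (0.020), Birc5 (-0.83), Cdk1 (-0.74), Isg15 (-0.46), Myh1 (-0.84), Mylpf (-0.23), Rptn (-0.45), Asprv1 (-0.80) and Lyve1 (0.12), without high-ribosomal and other-tissue libraries for Sesn1 (0.073), Cdkn2a (-0.34), Cdkn1b (0.013), C1qa (-0.040), Fn1 (-0.27), Col1a1 (-0.56), Birc5 (-0.30), Cdk1 (-0.20), Isg15 (-0.23), Acta1 (-0.25), Myh1 (-0.63), Mylpf (-0.58), Rptn (-0.50), Asprv1 (-0.46), Gja4 (-0.025) and Lyve1 (0.17), with limma voom for Col6a5 (0.24) and Postn (-0.25), with limma voom on day 28 alone for Col6a5 (0.014), on plate 1 alone for Col6a5 (0.59), without R6 of both groups for Col6a5 (0.81), without the 3 named libraries for Col6a5 (0.27), Acta1 (-0.17), Rptn (-0.46) and Asprv1 (-0.18), without these in the day 28 libraries alone for Col6a5 (0.19), Acta1 (-0.14), Rptn (-0.46) and Asprv1 (-0.17), with the ribosomal share added to that for Col6a5 (0.17), Acta1 (-0.86), Myh1 (-0.45), Mylpf (-0.32), Rptn (-0.51) and Asprv1 (-0.66), without PBS R6 for Col6a5 (0.69), without other-tissue libraries for Acta1 (-0.067), Rptn (-0.39) and Asprv1 (-0.40), without bleomycin R2 for Acta1 (-0.12), Myh1 (-0.012), Rptn (-0.41) and Asprv1 (-0.44). The cause was not tested. Leaving out 1 library gave -2.57 to 0.69 for Col6a5, -0.12 to 6.97 for Acta1, -0.012 to 6.99 for Myh1, -0.41 to 5.04 for Rptn and -0.44 to 4.95 for Asprv1. Plate 2 holds R6 and R7 of each group. Levels below about 1 CPM, as for Cdkn2a, are limited by depth.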

Other observations

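Lists not described above are given as counts against 19.7% and 18.4% of all genes tested. Among monocyte and dendritic cell genes 5 of 16 tested members rose and 3 fell. Among antigen presentation genes 2 of 19 tested members rose and 3 fell. Among complement genes 4 of 18 tested members rose and 4 fell. Among genes of type 2 airway inflammation 3 of 13 tested members rose and 1 fell. Among club and ciliated airway cell genes 3 of 20 tested members rose and 3 fell. Among lipid and cholesterol synthesis genes 3 of 17 tested members rose and 1 fell. Among circadian clock genes 1 of 16 tested members rose and 1 fell. Among immediate early and heat shock genes 1 of 18 tested members rose and 2 fell. Among mesothelial genes 0 of 9 tested members rose and 5 fell. Among cardiac muscle genes 1 of 13 tested members rose and 7 fell. Among adipose genes 0 of 15 tested members rose and 5 fell. Among haemoglobin and erythroid genes 0 of 9 tested members rose and 3 fell. Among thymus and lymph node genes 1 of 11 tested members rose and 3 fell. Among hair follicle genes 0 of 16 tested members rose and 0 fell. Among thyroid and parathyroid genes 0 of 6 tested members rose and 0 fell.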
